A study of Mus musculus with 9 samples.

Results

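Nr2f1, Nr2f2, Nr2f6, Sox4 and Sox9 encode transcription factors, and their chromatin was examined through 24 of 75936 peaks measured by bulk ATAC-seq in the murine breast carcinoma cell line D2A1-d. A peak belonged to a gene when its centre lay inside the gene, or otherwise when that gene's end was the nearest protein-coding gene end within 50 kb. This gave 4 peaks to Nr2f1, 8 to Nr2f2, 1 to Nr2f6, 5 to Sox4 and 6 to Sox9. An assigned peak is the nearest by position and not a tested regulator of the gene.

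The 9 libraries fell into 3 groups of 3. The labels give the control group as wild type and transduced with a non-targeting hairpin (NTC), and the other groups as Med1 knockdown with shMed1 #2 or shMed1 #4. All groups share the cell line, the transduction and a label of untreated. The study concerns the Mediator subunit MED4 and metastatic dormancy, and these libraries address what lowering Med1, another Mediator subunit, does to open chromatin.

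NR2F1 (COUP-TFI), NR2F2 (COUP-TFII) and NR2F6 (EAR2) are the COUP-TF orphan nuclear receptors, which bind repeats of a short half-site and can repress or activate genes by recruiting cofactors. SOX4 and SOX9 bind DNA through an HMG box, bend it, and act in progenitor cells, skeletal development and many carcinomas. In studies of disseminated cancer cells, NR2F1 has been described as an inducer of dormancy that acts in part through SOX9, retinoic acid receptor beta and the inhibitor p27, which Cdkn1b encodes. Mediator joins transcription factors at enhancers to RNA polymerase II, and MED1 carries its main contacts with nuclear receptors.

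The promoters of 3 of these genes are shown because a peak of the table covered the whole or a part of each. They are RefSeq sequences of GRCm38.p6, 250 bases before to 50 after an annotated start, read 5′ to 3′ on the minus strand. Capitals mark matches on either strand to the GC box GGGCGG, the CCAAT box CCAAT, the nuclear receptor half-site AGGTCA and the SOX cores ACAAAG and ACAATG.
Nr2f6, chr8:71381903-71382202: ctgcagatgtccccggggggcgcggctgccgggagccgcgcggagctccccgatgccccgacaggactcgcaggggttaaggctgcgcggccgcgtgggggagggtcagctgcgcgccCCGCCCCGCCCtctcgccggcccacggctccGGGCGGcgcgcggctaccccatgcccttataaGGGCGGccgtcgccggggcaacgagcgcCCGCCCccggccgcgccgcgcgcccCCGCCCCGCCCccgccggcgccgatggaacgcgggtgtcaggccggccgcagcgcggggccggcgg
Sox4, chr13:28953650-28953949: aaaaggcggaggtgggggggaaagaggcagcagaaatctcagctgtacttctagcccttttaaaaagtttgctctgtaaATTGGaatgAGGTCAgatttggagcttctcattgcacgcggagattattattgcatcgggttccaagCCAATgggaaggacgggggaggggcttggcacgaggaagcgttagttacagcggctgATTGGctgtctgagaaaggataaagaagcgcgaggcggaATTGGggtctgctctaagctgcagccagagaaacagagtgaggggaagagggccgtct
Nr2f1, chr13:78198824-78199123: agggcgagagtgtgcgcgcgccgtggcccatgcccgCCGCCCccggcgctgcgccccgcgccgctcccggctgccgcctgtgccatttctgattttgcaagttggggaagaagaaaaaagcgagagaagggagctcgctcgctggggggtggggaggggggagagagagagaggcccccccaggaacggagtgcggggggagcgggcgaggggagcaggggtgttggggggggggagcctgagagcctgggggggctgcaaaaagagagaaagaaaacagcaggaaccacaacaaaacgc
The Nr2f6 window was 82.7% G or C, above 99.5% of protein-coding promoters, and held 7 GC boxes, of which neighbouring ones can share a base. The Sox4 window had no GC box, but 4 CCAAT boxes and 1 half-site, at 52.0% G or C. The Nr2f1 window, at 68.0%, held 1 GC box. Over all 32851 promoters of the table, 35.7% had a GC box, 37.4% a CCAAT box, 16.3% the half-site, and 18.7% and 12.6% the SOX cores. A match describes letters and is not a binding site. Of the Nr2f2 entry, which had 2 CCAAT boxes, no base lay under a peak. The Nr2f1 entry for a start further inside the gene, with 1 ACAAAG core, had no peak either. For Sox9, no promoter is shown.

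Accessibility was given as reads per peak divided by a library factor, here called normalized counts. The reads in peaks, worked out from the steps of the values, numbered 34.8 to 53.7 M per library, with a median of 162 to 252 reads per peak. Peaks all spanned 501 bases by end minus start, so their levels can be set side by side. Libraries were called biological replicates in the labels with no account of separate cultures, and p-values measure the spread between these samples. The knockdown itself works on mRNA and cannot be checked from accessibility. A lower value cannot tell fewer cells with an open site from a less open site in each cell. Of the markers examined, the strongest gene-end peak of Vim, a mesenchymal filament gene, lay above 99.1% of all gene-end peaks, while Krt8, Epcam, Cdh1 and Krt5, genes of epithelial cells, had no peak within 1 kb of a gene end, and Krt18 and Krt14 had weak ones (209 and 126 in NTC). Peaks further from the gene ends were assigned to these genes too, 5 to Krt8, 6 to Epcam, 10 to Cdh1 and 2 to Krt5. Vim had 6 assigned peaks in all. Of markers of other cell types, Ptprc, Pecam1 and Adipoq had no gene-end peak, but 5, 10 and 1 assigned peaks. Acta2 and Rbfox3 had weak gene-end peaks (151 and 62.6 in NTC), and Cd68 and Pdgfrb ones of 1856 and 1232. Their part in the results was not tested.

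**Figure D1:**
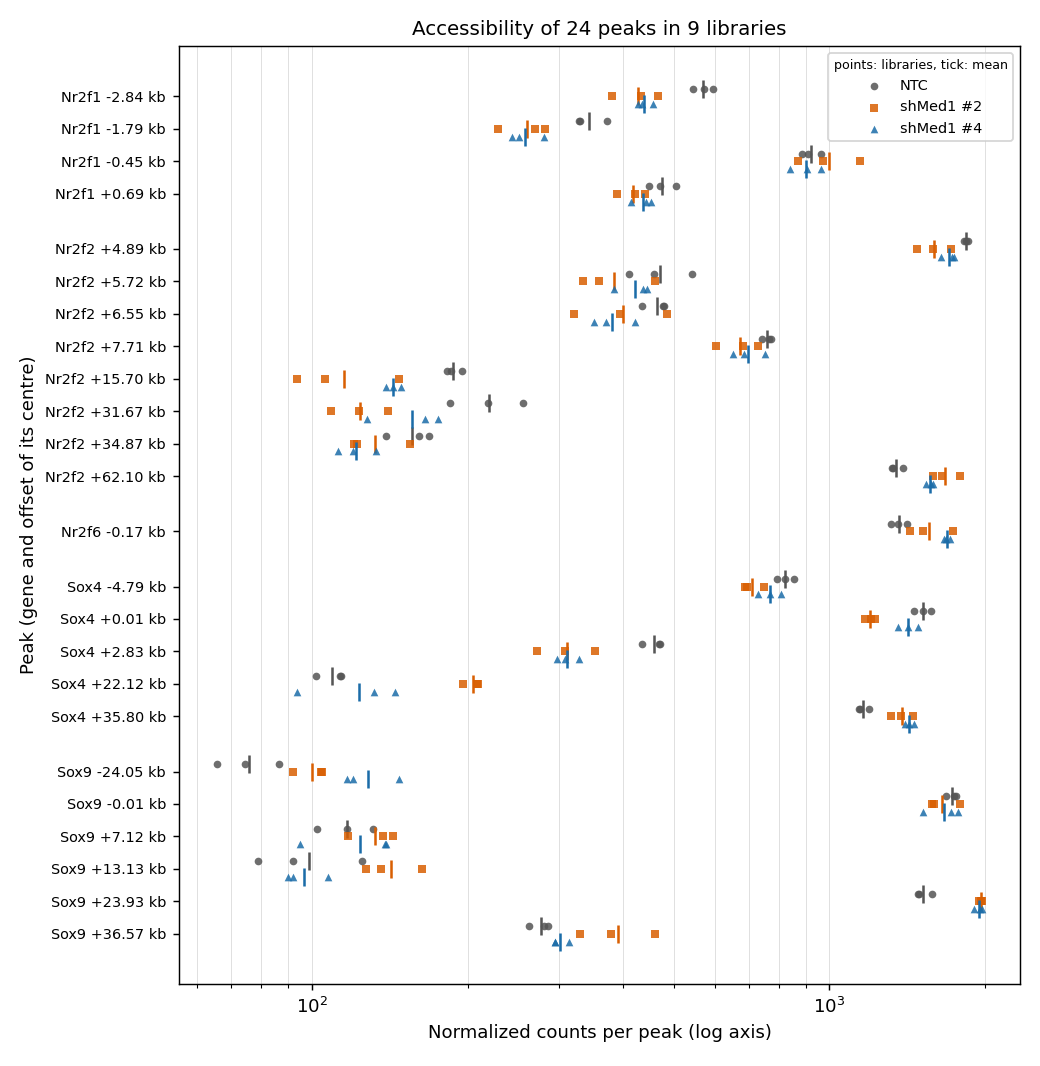
Normalized counts of the 24 peaks (log axis) in each library of NTC, shMed1 #2 and shMed1 #4, with a tick at each group mean. Labels give the offset of the peak's centre from the annotated start (minus: upstream), or for Sox9 from the nearer gene end (minus: below the gene, plus: above it). At Sox4 +22.12 kb shMed1 #2 lies apart from the other groups, and the strongest peaks of Sox9 and Nr2f1 at a gene end overlapped between groups.

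Across the 5 genes, accessibility moved in both directions in the mean of the Med1 hairpins. It went down around Nr2f1 and the body of Nr2f2, up at Nr2f6 and in the flanks of Sox9, and both ways around Sox4. In the mean of both hairpins against NTC, 7 of 24 peaks rose and 10 fell, by limma with Benjamini-Hochberg adjustment over all 75930 peaks tested and a threshold of 0.05. All 24 passed the filter on low values. The background is large, since 39.8% of all peaks passed in this comparison, 22.1% higher and 17.7% lower. The median log2 change was -0.15 over the 24 peaks and -0.0075 over all peaks. Normalized counts totalled 41.2 to 41.5 M in the NTC libraries and 43.1 to 44.2 M in the hairpin libraries. With each library scaled to an equal total, 7 of the 24 rose and 14 fell. Over all peaks the split then turned from 16796 higher and 13452 lower to 12104 higher and 21010 lower.

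With shMed1 #2 alone, 8 peaks rose and 10 fell (43.1% of all peaks passed), and with shMed1 #4 alone 5 rose and 6 fell (29.4%). The hairpins share the NTC libraries. Called the same way with both were 5 higher and 5 lower, against 12.3% and 7.78% of all peaks. All 6 hairpin libraries lay above every NTC library at 6 peaks and below at 6, against 15.0% and 12.3% of all peaks (27.3% in both directions). Leaving out each library in turn, rescaling or reweighting, 18 alternatives in all, kept 14 of the 17 calls of the mean comparison.

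By position, 4 of 5 peaks inside genes and over 1 kb from a gene end fell and none rose, by limma's adjusted threshold, with the fifth at an adjusted p of 0.052. All 5 values were negative, so none was higher at an unadjusted p under 0.05. These 5 were 4 neighbouring peaks inside Nr2f2 and 1 inside Sox4, so the count describes 2 genes. Of these, only the Sox4 peak passed as lower with each hairpin alone, where 7.78% of all peaks did. The mean calls at the Nr2f2 peaks 6.55 and 5.72 kb inside from the start were lost without single libraries. Of all peaks inside genes and over 1 kb from a gene end, 24.3% rose and 13.9% fell. Of the 6 within 1 kb of a gene end, 1 rose and 2 fell, where 14.3% and 32.7% of all such peaks did. The 13 others divided into 6 higher and 4 lower, beside 22.3% and 17.1%.

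**Figure D2:**
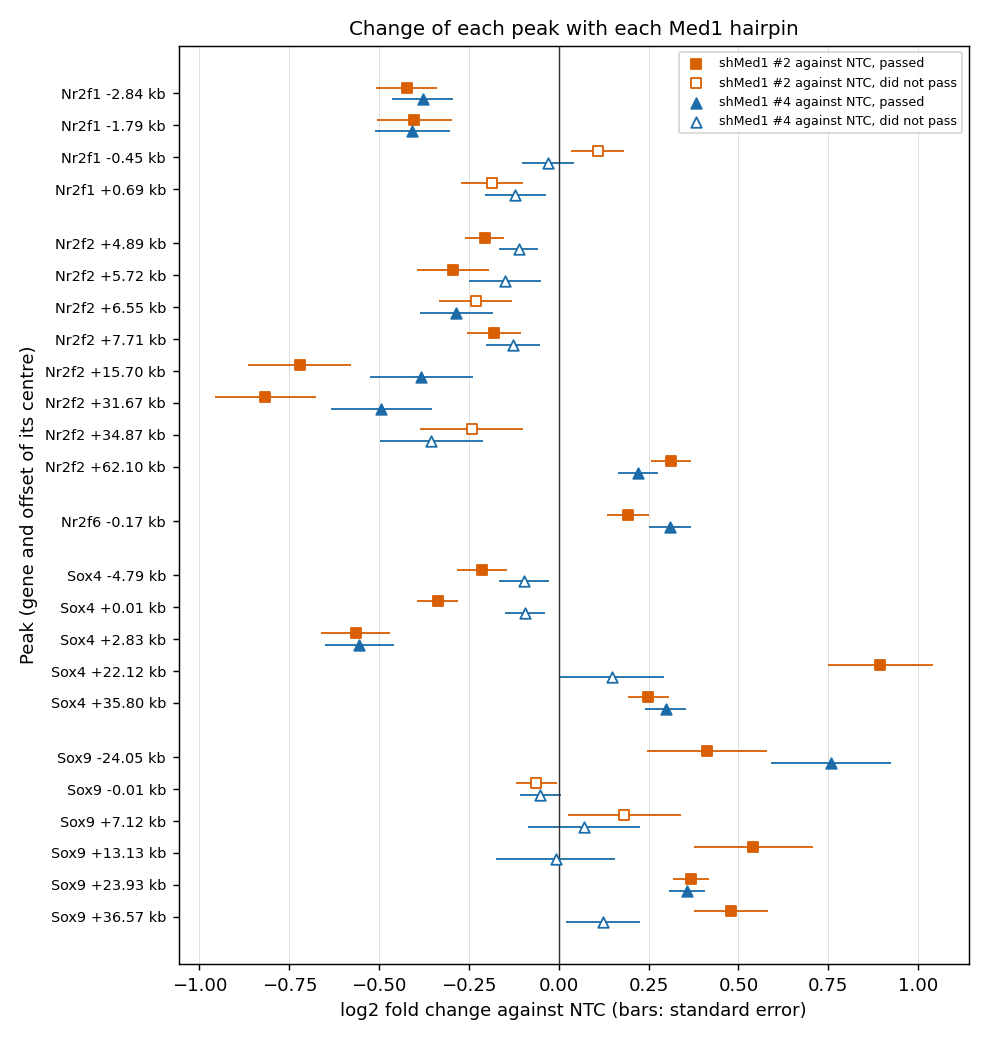
Log2 fold change against NTC of each peak with shMed1 #2 and shMed1 #4, with standard errors. Filled symbols passed the adjusted threshold of 0.05. The upstream Nr2f1 peaks at -1.79 and -2.84 kb and Sox4 +2.83 kb lay at nearly the same value with both hairpins, while Sox4 +22.12 kb and Sox9 +13.13 kb moved with shMed1 #2 and not detectably with shMed1 #4.

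Around Nr2f1, the dormancy-linked COUP-TF, accessibility fell at the pair of peaks furthest upstream. No peak covered the annotated start itself, and the peaks on either side of it did not pass. Of its 4 peaks 2 fell and 2 did not pass. The peak centred 2.84 kb upstream (chr13:78201463-78201964) held 546, 572 and 596 normalized counts in NTC, 467, 433 and 381 with #2, and 434, 427 and 456 with #4. Every hairpin library was below every control, and the log2 change was -0.40 ± 0.074 (SE; limma adjusted p = 1.73e-05), with -0.42 for #2 and -0.38 for #4. Its neighbour 1.79 kb upstream (chr13:78200408-78200909) had 329, 329 and 372 in NTC, 282, 269 and 229 with #2, and 244, 251 and 280.4 with #4. Again every hairpin library was below every control, and the change was -0.40 ± 0.091 (limma adjusted p = 0.000312). Both calls held under all 18 alternatives with each hairpin.

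The strongest Nr2f1 peak, centred 448 bases upstream (chr13:78199070-78199571), shares 54 bases with the promoter printed above if starts count from 1. It held 885, 965 and 907 in NTC, 1146, 973 and 871 with #2, and 839, 903 and 963 with #4. The groups overlapped, with 1 library of #2 standing above all others, and the change was 0.039 ± 0.063 (95% interval -0.088 to 0.17, limma adjusted p = 0.649). Without that library, replicate 1 of #2, the value was -0.013, and with equal totals -0.038. Without replicate 3 of #2, the #2 value passed at 0.20 (adjusted p = 0.0314). The 4th peak, 692 bases inside the gene, ran from 388 to 505 over the libraries, at -0.15 ± 0.074 (adjusted p = 0.0951). It passed as lower at -0.23 with equal totals (adjusted p = 0.0107), and under quantile and cyclic loess scaling and quality weights. All 4 peaks also lie over the noncoding gene A830082K12Rik, and the next peaks counted from Nr2f1 were 255 kb or more away. 

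In the mean of both hairpins Nr2f2, whose product COUP-TFII shapes veins, atria and the uterus, lost accessibility within its body and beyond its 3′ end. Accessibility rose at 1 remote peak. In that mean, 5 of 8 peaks fell, 1 rose and 2 did not pass. No peak inside the gene passed with both hairpins taken apart. The strongest, 4.89 kb inside the gene from its annotated start (chr7:70361601-70362102), held 1851, 1835 and 1817 in NTC, 1717, 1587 and 1476 with #2, and 1639.8, 1737 and 1722 with #4. The 6 hairpin libraries lay below the 3 controls, which differed little, and the change was small, at -0.16 ± 0.047 (limma adjusted p = 0.00580). The part from #4 alone, -0.11, did not pass (adjusted p = 0.119), but did under equal totals (-0.18), quantile (-0.18) and cyclic loess (-0.20) scaling.

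Larger falls were at weak peaks past the 3′ end. The peak 16.9 kb beyond it (chr7:70334823-70335324) had 185, 219 and 256 in NTC, 109, 123 and 140.4 with #2, and 175, 128 and 166 with #4. None of the hairpin libraries reached the lowest control, and the change was -0.66 ± 0.12 (limma adjusted p = 2.04e-05), -0.82 with #2 and -0.49 with #4. The #4 call was lost without replicate 3 of NTC (-0.38, adjusted p = 0.0829) or replicate 2 of #4 (-0.36, adjusted p = 0.0804). A peak 898 bases beyond the end (chr7:70350797-70351298) had 183, 186 and 195 in NTC, 148, 106 and 93.6 with #2, and 149, 144 and 139 with #4. Here too the hairpin libraries all lay below the controls, with #2 spread widely, at -0.55 ± 0.12 (limma adjusted p = 0.000340). Its #4 value of -0.38 passed narrowly (adjusted p = 0.0379) and was lost without any 1 of the NTC or #4 libraries (-0.41 to -0.36, adjusted p 0.0558 to 0.121), and under quantile (-0.35) and cyclic loess (-0.32) scaling.

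The rise at Nr2f2 was 47.3 kb past the 3′ end (chr7:70304391-70304892), over the noncoding gene Gm29683 like the peaks 16.9 and 20.1 kb past it, with 1327, 1321 and 1386 in NTC, 1785, 1647 and 1585 with #2, and 1586, 1539 and 1574 with #4. All hairpin libraries exceeded all controls, at 0.27 ± 0.048 (limma adjusted p = 1.08e-05), and the call held in all 18 alternatives. The remaining 4 peaks all had negative values. Those 6.55 and 5.72 kb inside from the start fell by 0.26 and 0.22 on the log2 scale (limma adjusted p = 0.0158 and 0.0374). The first passed with #4 alone (-0.29, adjusted p = 0.0280) but not with #2 (-0.23, adjusted p = 0.0590). The second passed with #2 alone (-0.29, adjusted p = 0.0156) but not with #4 (-0.15, adjusted p = 0.270). In the mean the first call was lost without replicate 2 or 3 of NTC or replicate 3 of #2 (-0.24 to -0.18). The second was lost without replicate 2 or 3 of NTC, 2 or 3 of #2 or 1 of #4 (-0.24 to -0.11). The peak 7.71 kb inside (-0.15, adjusted p = 0.0520) and that 20.1 kb past the end (-0.30, adjusted p = 0.0507) did not pass. The first did without replicate 1 of #2 (-0.18) or replicate 1 of #4 (-0.18), and the second without either of these (-0.36 and -0.33) or replicate 2 of NTC (-0.38). With equal totals (-0.23 and -0.38) and quality weights (-0.18 and -0.29) both passed as lower. The first also did under quantile (-0.23) and cyclic loess (-0.20) scaling and with a mean of at least 50, and the second with voom weights (-0.29). With #2 alone the first was called at -0.18 (adjusted p = 0.0457), a call lost without any 1 of NTC, without replicate 2 or 3 of #2 and with voom weights (-0.20 to -0.11).

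Nr2f6, which encodes a corepressing member of the family best known in lymphocytes, gained accessibility at its promoter. Its only peak (chr8:71381871-71382372) covers all 300 bases of the GC-rich window printed above. It held 1314, 1413 and 1354 in NTC, 1732, 1514 and 1433 with #2, and 1713, 1664 and 1679 with #4. Every hairpin library was above every control, replicate 3 of #2 only by a small margin. The change was 0.25 ± 0.050 (limma adjusted p = 6.71e-05), with 0.31 for #4 and 0.19 for #2. The #2 call was lost without its replicate 1 (0.12, adjusted p = 0.0975) and under equal totals (0.11), quantile (0.13) and cyclic loess (0.10) scaling, while the mean of both hairpins passed in all 18 alternatives. Of all gene-end peaks, 14.3% rose in that comparison.

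At Sox4, a progenitor factor linked to invasion in breast carcinoma, all 5 peaks passed: those at and near the gene fell and those further past its 3′ end rose. The start-site peak (chr13:28953440-28953941), which shares 292 bases with the promoter above, had 1456, 1514 and 1571 in NTC, 1201, 1222 and 1170.0 with #2, and 1482, 1355 and 1419 with #4. The #2 libraries were lowest of all without overlap, and #4 overlapped NTC. The change was -0.34 ± 0.057 with #2 (limma adjusted p = 3.12e-06) and -0.093 with #4 (adjusted p = 0.218), and the difference between hairpins passed at 0.24 ± 0.057 (adjusted p = 0.00100). Under equal totals, quantile and cyclic loess scaling the #4 value passed as lower too, at -0.16, -0.14 and -0.16.

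Inside Sox4, 2.83 kb from the start (chr13:28950622-28951123), values were 435, 469 and 471 in NTC, 352, 273 and 308 with #2, and 298, 329 and 308 with #4. Both hairpin groups lay well under the controls and at the same level as each other. The change was -0.56 ± 0.083 (limma adjusted p = 3.18e-07), with -0.57 for #2 and -0.56 for #4. The peak 4.79 kb upstream (chr13:28958238-28958739) had 853, 820.4 and 790.3 in NTC, 747, 688 and 692 with #2, and 806, 729 and 769 with #4. The #4 libraries overlapped the controls, and the change of -0.15 (SE 0.060) passed narrowly (adjusted p = 0.0363). It was lost without replicate 1 or 2 of NTC, 2 or 3 of #2, or 2 of #4 (-0.16 to -0.13, adjusted p 0.0587 to 0.159), and the #2 call without replicate 1 of NTC (-0.18) or 2 of #2 (-0.19). These 3 peaks also lie over the noncoding gene Gm46405.

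Past the 3′ end of Sox4, the peak 31.0 kb away (chr13:28917649-28918150) had 1191, 1142 and 1148 in NTC, 1373, 1318 and 1450.0 with #2, and 1424, 1396 and 1458 with #4. All hairpin libraries exceeded all controls, at 0.27 ± 0.049 (limma adjusted p = 1.27e-05). The weak peak 17.3 kb away (chr13:28931325-28931826) had 114, 113 and 102 in NTC, 209, 208 and 196 with #2, and 132, 93.8 and 145 with #4. It was 1.86-fold higher with #2 (log2 0.89 ± 0.15, adjusted p = 1.76e-06), while #4 spread across the controls at 0.15 (95% interval -0.14 to 0.44). The difference between hairpins was -0.75 ± 0.15 (adjusted p = 0.000103), the largest of the 24 peaks.

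Sox9, the factor of cartilage, hair follicle and mammary stem cells placed below NR2F1 in the dormancy model, gained accessibility in its flanks with no detectable change at its end peak. Of 6 peaks 3 rose, none fell and 3 did not pass. None fell with either hairpin alone. By limma's unadjusted p under 0.05, none was lower either. The peak centred 10 bases below the lower-coordinate end (chr11:112781950-112782451) had 1677, 1741 and 1753 in NTC, 1786, 1580.1 and 1593 with #2, and 1768, 1714 and 1518 with #4. The groups overlapped fully, at -0.057 ± 0.049 (95% interval -0.16 to 0.042, adjusted p = 0.371). Under equal totals, quantile and cyclic loess scaling it passed as lower, at -0.13, -0.12 and -0.15 (adjusted p = 0.0194, 0.0305 and 0.00874).

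The clearest rise was 23.9 kb above the gene (chr11:112811440-112811941). There, NTC had 1579, 1484 and 1488, #2 had 1942, 1973 and 1962, and #4 had 1906, 1952 and 1967. Hairpin libraries all exceeded the controls by a wide margin and lay within a narrow range of one another. The change was 0.36 ± 0.044, or 1.29-fold (limma adjusted p = 2.36e-09), with 0.37 and 0.36 for the hairpins apart, and all 18 alternatives kept the calls. The peak 24 kb below the gene (chr11:112757912-112758413) was weak, with 74.3, 86.6 and 65.6 in NTC, 105, 92.1 and 104 with #2, and 117, 148 and 120.2 with #4. Its 3 groups did not overlap, at 0.58 ± 0.14 (adjusted p = 0.00103). The #2 value of 0.41 passed narrowly (adjusted p = 0.0415) and was lost without replicate 1 or 3 of NTC or of #2 (0.32 to 0.40, adjusted p 0.0783 to 0.179). It was also lost under equal totals (0.33) and quality weights (0.35).

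Further peaks above Sox9 moved mostly with #2. The peak 36.6 kb away (chr11:112824080-112824581) had 286, 281 and 263 in NTC, 330.3, 459.5 and 379 with #2, and 295, 295 and 314 with #4. Both hairpin groups lay above NTC, #4 only just, at 0.48 ± 0.10 (limma adjusted p = 0.000155) and 0.12 (adjusted p = 0.388). This peak lies over the noncoding gene 1700012H19Rik. That 13.1 kb away (chr11:112800633-112801134) had 125, 92.2 and 78.7 in NTC, 136, 164 and 127 with #2, and 92.2, 108 and 90.1 with #4. There #2 stood above the other groups, at 0.54 ± 0.17 (adjusted p = 0.00692), and #4 did not differ detectably from NTC, at -0.0084 (95% interval -0.34 to 0.32). The #2 call was lost without replicate 3 of NTC (0.39, adjusted p = 0.0827) or 2 of #2 (0.44, adjusted p = 0.0625). Without replicate 1 of NTC the mean of both hairpins passed at 0.45 (adjusted p = 0.0246). The 6th peak, 7.12 kb away and over the noncoding gene Gm11681, ran from 95.1 to 144 with overlapping groups (0.13 ± 0.14, adjusted p = 0.477).

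Between the hairpins themselves, 1 peak was higher with #4 and 3 were lower, where 21.5% of all peaks passed, 8.48% higher and 13.0% lower. Higher was the Sox4 start-site peak, and lower were the Sox4 peak 17.3 kb past its 3′ end and the Sox9 peaks 13.1 kb (-0.55 ± 0.17, limma adjusted p = 0.0120) and 36.6 kb (-0.36 ± 0.10, adjusted p = 0.00822) above the gene. Both Sox9 differences were lost without replicate 2 of #2, at -0.45 (adjusted p = 0.0988) and -0.23 (adjusted p = 0.154). None of the 13 Nr2f1, Nr2f2 and Nr2f6 peaks passed by limma. At an unadjusted p under 0.05 there were 2, the Nr2f2 peaks 16.9 kb and 898 bases past the 3′ end. In all, 6 of the 13 crossed the adjusted threshold without 1 library. These were Nr2f1 448 bases upstream without replicate 3 of #2 (-0.23), Nr2f2 16.9 kb past the end without replicate 2 of #4 (0.46), and without replicate 1 of #2 the Nr2f2 peaks 898 bases past the end (0.53) and 5.72 and 4.89 kb inside the gene (0.28 and 0.15) and Nr2f6 (0.19). The peak 898 bases past the end also passed with quality weights (0.40).

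**Figure D3:**
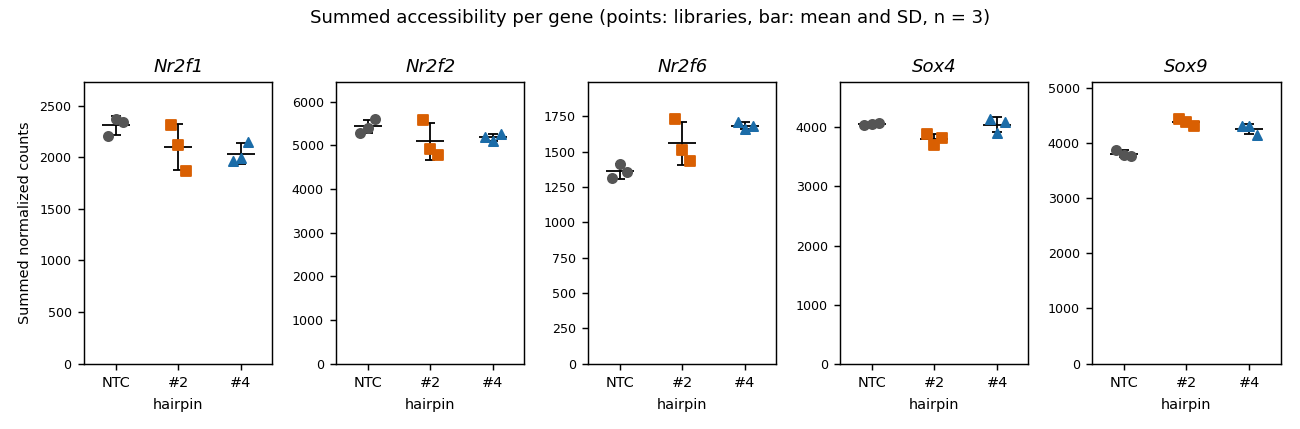
Normalized counts summed over the peaks of each gene, per library, with mean and SD (n = 3) and a vertical axis from 0 for each gene. The Nr2f6 and Sox9 sums of all hairpin libraries were above every control. For Nr2f1 and Nr2f2 the sums of #4 lay below every control and those of #2 overlapped them, and for Sox4 it was #2 that lay below and #4 that overlapped.

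Summed over the peaks of a gene, Sox9 and Nr2f6 rose, Nr2f1 and Nr2f2 fell and Sox4 did not pass in the mean of both hairpins. In that comparison 53.7% of 15712 genes passed, 27.1% higher and 26.6% lower. The Sox9 sum was 3809 ± 56.6 in NTC, 4377 ± 63.9 with #2 and 4259 ± 95.5 with #4 (SD, n = 3), a change of 0.18 ± 0.030 (limma adjusted p = 5.60e-06). The single Nr2f6 peak gave the values above, 1360.3 ± 49.7, 1559.6 ± 154 and 1685 ± 24.8. The Nr2f1 sum went from 2308 ± 87.8 to 2100.5 ± 223 and 2035 ± 103 (-0.16 ± 0.047, adjusted p = 0.00470).

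Nr2f2 went from 5436 ± 157 to 5094 ± 431 and 5186 ± 78.7, a change of -0.082 ± 0.035 that barely passed (limma adjusted p = 0.0472). That call was lost without replicate 2 or 3 of NTC, 2 or 3 of #2, or any 1 of #4 (-0.088 to -0.060, adjusted p 0.0519 to 0.247). A window of 100 kb turned the value to 0.0053. With #2 alone the Nr2f2 sum passed narrowly (-0.097, limma adjusted p = 0.0424), and with #4 alone it did not (-0.068, adjusted p = 0.177). Sox4 stood at 4063 ± 17.1, 3802 ± 87.7 and 4048 ± 127, with falls near the gene beside rises further out (-0.051 ± 0.030, adjusted p = 0.158). With equal totals, quantile or cyclic loess scaling the Sox4 sum passed as lower, at -0.12 in each, as it did with quality weights (-0.066) and in a window of 25 kb (-0.20, adjusted p = 1.53e-05). A window of 200 kb turned it to 0.032. With #2 alone the Sox4 sum passed as lower (-0.096, limma adjusted p = 0.0216), and with #4 alone it did not pass (-0.0058, adjusted p = 0.910).

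**Figure D4:**
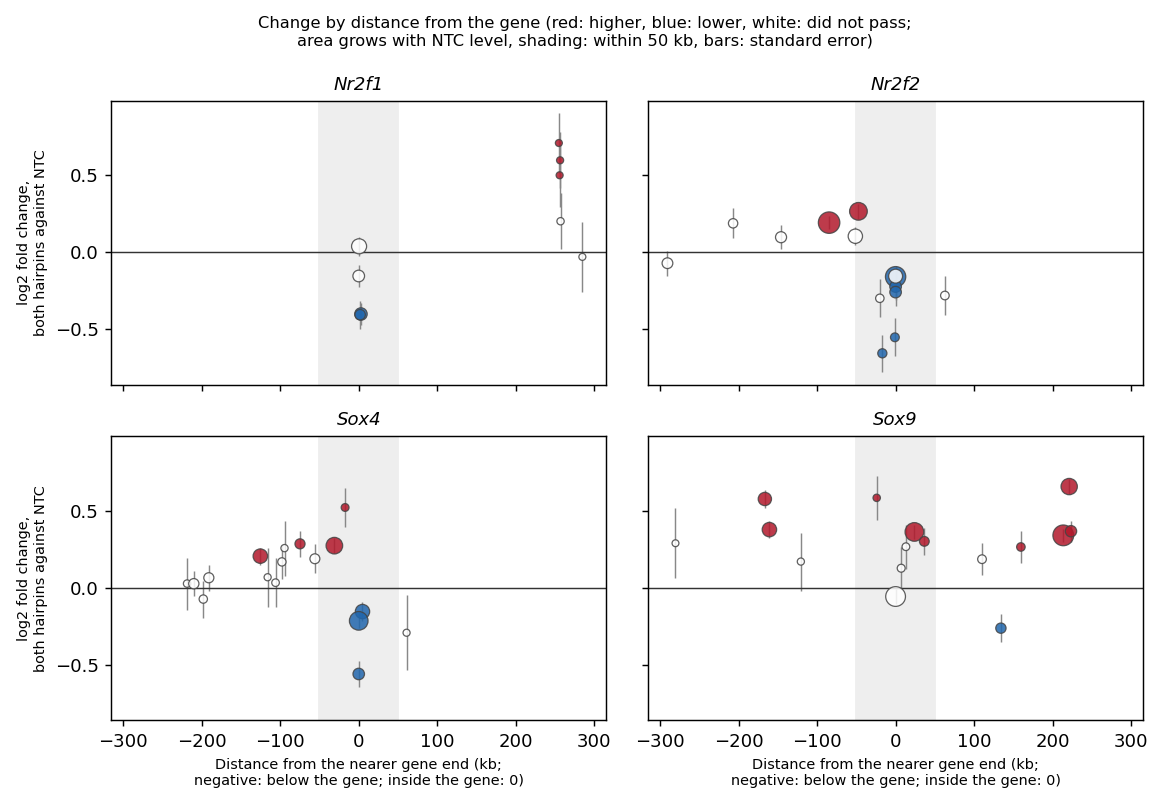
Log2 change in the mean of both hairpins against distance from the nearer end of the gene, out to 300 kb on either side, for Nr2f1, Nr2f2, Sox4 and Sox9. Shading marks the 50 kb within which peaks were assigned. Beyond it 12 of 33 peaks were higher (red) and 1 lower (blue), with 10 of the 33 around Sox9.

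Peaks between 50 and 300 kb from these genes, nearer to them than to any other protein-coding gene, numbered 33, and these mostly rose where they passed. In the mean of both hairpins 12 rose and 1 fell, with a median log2 change of 0.19. Of all peaks at such distances from the nearest protein-coding gene end, 24.8% rose and 13.0% fell. With #2 alone 15 of the 33 rose and none fell (median 0.27), and with #4 alone 10 rose and 3 fell (median 0.083). Over all peaks, 23.6% rose and 19.5% fell with #2, and 17.3% and 12.1% with #4. Between the hairpins, 9 of the 33 were lower with #4 and 2 higher, beside 13.0% and 8.48% of all peaks. In the mean with equal totals 9 of the 33 rose and 2 fell. Leaving out 1 library gave 8 to 12 higher (8 without replicate 3 of NTC) and 0 to 2 lower. Over all peaks, equal totals gave 12104 higher and 21010 lower, and leaving out 1 library gave 13633 to 17189 and 8325 to 14205. Sox9, which lies in a gene-poor region, had 10 of the 33, with 6 higher and 1 lower (with #2 7 and 0, with #4 5 and 1). The largest, 221 kb above the gene (chr11:113008508-113009009), rose by 0.66 ± 0.049 (limma adjusted p = 1.65e-15), 0.71 with #2 and 0.60 with #4. At 166 kb below it, another (chr11:112615504-112616005) rose by 0.90 with #2 and 0.26 with #4. The peak that fell, 134 kb above Sox9, did so with #4 (-0.56 ± 0.11, adjusted p = 5.09e-05) and was at 0.037 with #2. In the mean comparison this call was lost without replicate 1 or 2 of NTC or 3 of #2. Nr2f1 had 5, all weak and 255 to 285 kb away, of which 3 rose (none without replicate 3 of NTC, 2 with equal totals). Sox4 had 2 higher of 12 and Nr2f2 1 of 6, the strong peak 84.7 kb past its 3′ end (0.19 ± 0.043, adjusted p = 0.000319).

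The genes whose summed accessibility ran most nearly parallel over the 9 libraries are given as a description, since all share the libraries and their groups. For Sox9 they were Angpt2 (Pearson r = 0.994), Pfkfb3 (0.992) and Pdpn (0.992), of 15561 genes compared, and 1148 genes had an r over 0.9. For Nr2f1 they were Wdr36 (0.977), Nploc4 (0.973) and Nup153 (0.958). Nr2f2 ran closest to Gnpda2 (0.985), Hmox2 (0.973) and Trim7 (0.972), and Nr2f6 to Ptp4a1 (0.963), Gclm (0.962) and Gdf11 (0.961). Sox4 ran closest to Psma5 (0.990), Glyctk (0.973) and Gm7040 (0.962). For these 4 genes, 55 to 100 genes had an r over 0.9.

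Genes linked to these factors were read from 5 lists, in the mean of both hairpins and beside the 22.1% higher and 17.7% lower of all peaks. Over all peaks, 13452 were lower there, 21010 with equal totals, 15203 and 14131 under quantile and cyclic loess scaling, and 8325 without replicate 3 of NTC. Those higher were 16796, 12104, 14947, 15519 and 13633, in the same order. Targets and partners of SOX9 had 148 peaks, of which 48 (32.4%) rose and 19 (12.8%) fell, with a median log2 change of 0.12. Prelp, a cartilage matrix protein gene, rose at a peak from 2449 ± 212 in NTC to 4370 ± 146 with #2 and 3309 ± 134 with #4 (0.64 ± 0.041, limma adjusted p = 1.73e-17). Peaks of Nr5a1, a gonadal nuclear receptor gene, and the collagen gene Col27a1 rose by 0.41 and 0.40. Gene-end peaks of Ctnnb1, which encodes beta-catenin, and its partner Tcf7l2 fell by 0.46 and 0.59, and of Matn4 by 0.38.

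Dormancy genes had 229 peaks, of which 57 rose and 39 fell (66 with equal totals), with a median of 0.017. Cdkn1b, which encodes p27, fell at a peak 1.98 kb beyond a gene end from 355 ± 31.0 in NTC to 201 ± 41.8 with #2 and 189.8 ± 41.6 with #4 (-0.88 ± 0.11, limma adjusted p = 1.42e-08). Thbs1, a matricellular gene, fell by 1.02 at a gene-end peak. Bhlhe40, a repressor gene of the clock, had a rise of 0.58 at a peak 21.6 kb away and a fall of 0.37 inside the gene. Lif, a cytokine gene, and Tgfbr2, a TGF-beta receptor gene, rose by 0.40 and 0.39 at peaks inside them.

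Cofactors and corepressors had 135 peaks, of which 37 (27.4%) rose and 13 (9.63%) fell, with a median of 0.041. A weak peak inside Rcor1, of the CoREST complex, went from 74.5 ± 5.47 in NTC to 158.5 ± 28.2 with #2 and 159 ± 14 with #4 (1.08 ± 0.13, limma adjusted p = 3.35e-09). A peak inside Zfpm1, the FOG1 gene, rose by 0.32. Gene-end peaks of Pias1, Kdm1a and again Zfpm1 fell by 0.45, 0.41 and 0.28. With equal totals, this list turned to 23 higher and 24 lower, with 20 and 21 lower under quantile and cyclic loess scaling.

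The other SOX genes had 58 peaks, with 15 higher, 11 lower (25.9% and 19.0%) and a median of 0.0093, and 17 lower with equal totals. Peaks of Sox18, Sox14 and Sox5 rose by 0.62, 0.53 and 0.52, and those of Sox13, Sox12 and Sox8 fell by 0.47, 0.38 and 0.33. The other orphan nuclear receptors and their relatives had 76 peaks, with 14 higher, 10 lower (18.4% and 13.2%) and a median of 0.0081. The lower count was 23 with equal totals, 20 and 19 under quantile and cyclic loess scaling, and 3 without replicate 3 of NTC. A strong peak inside Nr1d1, the clock repressor REV-ERB alpha gene, rose by 0.45, as did one inside Nr2c1 by 0.48. Peaks inside Nr5a2 and Nr6a1 fell by 0.62 and 0.59, and the gene-end peak of Esrra by 0.12.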

How the data were processed

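The submitters' processing notes name Trim Galore, BWA, MACS2, featureCounts (Subread) and the build mm10 (GRCm38). Versions, peak merging, duplicate removal and transposase offset were not given in the sources used here. By its name, the deposited file holds a signal per peak that the authors normalized with DESeq2. In each library every value was a whole multiple of a step, within 0.01 (factors 0.799 to 1.22).

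Log2 of the value plus 1 was fitted with limma 3.58.1 (R 4.3.3, with a trend) over 75930 peaks with a mean of at least 10, with 1 mean per group and no further scaling. P-values were two-sided, Benjamini-Hochberg adjusted over all peaks or genes. The fit was also run on simulated data with 1 fixed spread for all peaks and few changed peaks, which does not check the calls made here. Peaks were assigned with RefSeq genes of GRCm38.p6. Coordinates are those of the deposited file, whose first base number (0 or 1) no source gives. Peaks printed in full were the strongest gene-end peak, up to 3 called peaks per direction and gene by adjusted p, and those at least 0.5 apart between hairpins. Lists gave up to 3 peaks per direction by adjusted p, and likeness used genes with a mean sum of at least 50. Members and lists were chosen with earlier results of these data known. Same-numbered libraries did not deviate together (correlations -0.084 to 0.033). Replicate pairs differed by more than counting noise (chi-square per peak 1.95 to 4.47).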

Additional observations from a re-analysis of the deposited data

Results flagged for a closer look

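A difference between the hairpins themselves, tested by limma with adjustment over all peaks, marked 4 peaks. The Sox4 peak 17.3 kb past the 3′ end differed by -0.75 ± 0.15 (#4 minus #2, adjusted p = 0.000103), with means of 205 for #2 and 124 for #4. The Sox4 start-site peak differed by 0.24 ± 0.057 (adjusted p = 0.00100), with means of 1198 and 1419. The Sox9 peak 13.1 kb above the gene differed by -0.55 ± 0.17 (adjusted p = 0.0120), with means of 142 and 96.6. The Sox9 peak 36.6 kb above it differed by -0.36 ± 0.10 (adjusted p = 0.00822), with means of 389.7 and 301. Both Sox9 differences did not pass without replicate 2 of #2, at -0.45 and -0.23.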

How the results depend on the processing

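Of 24 peaks, 17 passed in the mean of both hairpins, and 14 of these did so under all 18 alternatives. The same held for 12 of 18 with #2, 8 of 11 with #4, and 2 of 4 between hairpins. Counts moved by over 1.5 times as follows. A window of 25 kb, with 21 peaks, left 4 higher in the mean, 5 with #2 and 3 with #4. A window of 200 kb, with 44 peaks, gave 13, 16 and 10 higher, 18 called with #4, and 10 between hairpins (2 higher, 8 lower). Equal totals gave 10 lower with #4, and quality weights 2 higher between hairpins. Leaving out 1 library gave 3 to 7 lower with #4, and between hairpins 2 to 8 called, 1 to 5 higher and 1 to 3 lower. Over all peaks, lower calls with #4 went from 9152 to 14938 with equal totals, and ran from 5500 to 10053 with 1 library left out.

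Values near 0 turned. The Nr2f1 peak 448 bases upstream went to -0.038 (equal totals), -0.024 (quantile) and -0.020 (cyclic loess), and ran from -0.013 to 0.086 with 1 library left out (with #4 from -0.078 to 0.021). With #4 and 1 library left out, the Sox9 end peak ran from -0.095 to 0.014 and the peak 7.12 kb above Sox9 from -0.021 to 0.25. With #4, the peak 13.1 kb above Sox9 went to 0.041 (quantile), 0.059 (cyclic loess) and 0.036 (quality weights), and ran from -0.16 to 0.18 with 1 library left out. The Nr2f2 sum went to 0.0053 and 0.0098 in windows of 100 and 200 kb (0.018 and 0.021 with #4). The Sox4 sum went to 0.032 (0.016 with #2, 0.048 with #4) in 200 kb, and with #4 to 0.020 in 100 kb and from -0.023 to 0.020 with 1 library left out. The cause was not tested.

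Among lists, equal totals gave 17 lower for SOX genes, 23 for orphan receptors, 24 lower and 23 higher for cofactors, and 66 lower for dormancy genes. Quantile and cyclic loess scaling gave 20 and 19 lower for orphan receptors and 20 and 21 for cofactors. SOX genes had 24 higher in 200 kb and 7 by the nearest gene end only. Orphan receptors had 3 to 13 lower with 1 library left out. Over all peaks, lower calls went from 13452 to 21010, 15203 and 14131 with equal totals, quantile and cyclic loess scaling. They ran from 8325 to 14205 with 1 library left out.

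A replicate block kept 17, 18, 11 and 4 calls, and only the Nr2f2 sum lost its call (-0.082, adjusted p = 0.0596; with #2 -0.097, adjusted p = 0.0539). Voom weights, chosen after seeing the data, gave 18, 17, 11 and 4 calls of peaks. Of the summed calls in the mean of both hairpins, 1 was lost with voom weights. The edgeR test planned on whole reads was not run, since no peak showed 1 read to fix the step. Standard errors of the mean comparison ran from 0.044 to 0.14 over the 24 peaks.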
